A study of Rattus norvegicus with 2 samples.

Results

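Interferon-induced genes are switched on when a cell senses an interferon or foreign nucleic acid. An interferon binds its receptor, kinases of the JAK family phosphorylate transcription factors of the STAT family, and these join IRF9 to bind the interferon-stimulated response element in the promoters of its target genes. The products include proteins that bind viral RNA, GTPases that trap viral particles, a ubiquitin-like protein and regulators that prolong or end the response. In the brain, microglia, astrocytes, endothelium and neurons can all respond to interferon, and a low tonic level of the response is present without infection.

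This set of 9 genes, Ifit1, Ifit2, Ifit3, Mx1, Mx2, Isg15, Irf7, Oas1a and Usp18, was taken by gene symbol from the 22777 genes of the rat mRNA table, and the FPKM of the transcripts of each gene was summed. All 9 were found, and all 9 reached an FPKM of at least 1 in 1 stage or more, as 14029 of the 22777 genes did. The set was chosen because the FPKM of Ifit1 was among those with the largest rises at puberty, so the difference between the stages is described here and was not tested. The RNA came from the hypothalamus of female Sprague Dawley rats, prepubertal rats at postnatal day 25 and pubertal rats at postnatal day 35, in the first estrus. The methods give 3 rats per stage and the files hold 1 column per stage, so each stage is 1 value with no spread between animals, and a high value in 1 rat cannot be told apart from a moderate value in all 3. The stages also differ in age by design. The hypothalamic peptide and transcription factor genes listed as a check of the tissue were above 0 in each stage, 16 of 16, with Pmch and Oxt the most abundant of them.

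FPKM is the number of sequenced fragments of a transcript scaled to its length and to the size of the library. The low FPKM of each stage fell on 1 ladder of whole fragments, so the fragments behind each value could be derived from the FPKM and the transcript length. The ladder implied a depth of about 20800000 fragments before puberty and about 16200000 at puberty, a ratio of 1.28. A fragment number within 0.1 of a whole number was found for 93.9% of 4004 low transcripts before puberty and 94.0% of 4409 at puberty. The 95% intervals below are exact Poisson intervals of a fragment number, or exact conditional binomial intervals of a ratio, and cover counting error only. They compare the libraries and carry no spread between rats.

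The promoter sequences of the genes were not read when the set was chosen. Interferon-induced genes were listed as such, and the interferon-stimulated response element acts in their promoters, so matches are not independent of the choice. RefSeq promoter windows (build GRCr8, from 250 bases before to 50 bases after the start of the gene) were matched by symbol for 4 of the 9 genes, Ifit3, Irf7, Oas1a and Mx1. The 150 bases before the start are shown for each, 5′ to 3′ on the strand of the gene, because these stretches hold every match found in the windows of the 4 genes. Capitals mark matches to the core of the interferon-stimulated response element, which is GAAA, any 2 bases and GAAA again, or on the other strand TTTC, any 2 bases and TTTC. Both strands were searched and matches could overlap.
Ifit3, chr1:241527176-241527325, plus strand: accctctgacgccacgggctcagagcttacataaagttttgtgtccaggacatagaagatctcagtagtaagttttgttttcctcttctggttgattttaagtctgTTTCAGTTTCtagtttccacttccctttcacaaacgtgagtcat
Irf7, chr1:205800024-205800173, minus strand: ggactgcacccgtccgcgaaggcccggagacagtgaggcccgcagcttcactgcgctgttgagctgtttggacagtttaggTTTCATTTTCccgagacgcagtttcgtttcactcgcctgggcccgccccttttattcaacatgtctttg
Oas1a, chr12:41330316-41330465, plus strand: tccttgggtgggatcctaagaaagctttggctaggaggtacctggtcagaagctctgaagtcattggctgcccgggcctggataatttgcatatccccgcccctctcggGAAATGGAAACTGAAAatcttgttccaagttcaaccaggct
Mx1, chr11:50294607-50294756, minus strand: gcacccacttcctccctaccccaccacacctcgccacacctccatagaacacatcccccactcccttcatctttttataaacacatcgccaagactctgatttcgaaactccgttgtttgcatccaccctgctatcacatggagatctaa

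The match in Ifit3 began 44 bases before the start of the gene and that in Irf7 69 bases before it. Oas1a held 2 overlapping matches, which began 41 and 35 bases before the start. The window of Mx1 held 0 matches to these letters. A match was thus found in 3 of the 4 windows (75%), against 1131 of 27457 symbols with a window (4.12%). In a list of 68 other interferon-induced genes, 56 symbols had a window and 35 of these held a match (62.5%). The share was 4 of 10 among interferon ligands (40%), 1 of 10 among genes of interferon signalling, 2 of 8 among sensors of nucleic acids and 0 of 6 among interferon receptors. A match describes the sequence and is not evidence that a factor was bound in these rats.

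**Figure D1:**
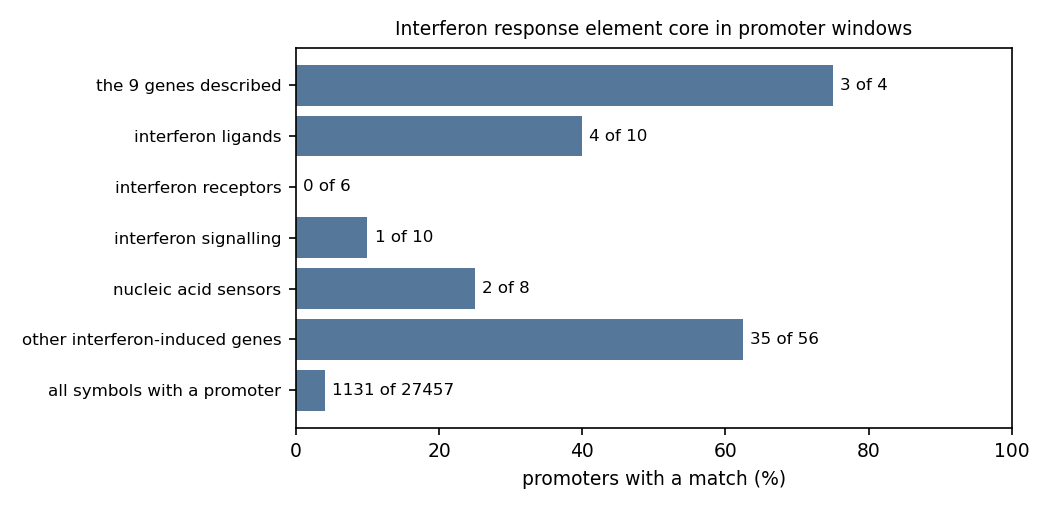
Percentage of symbols with a promoter window that held a match to the interferon response element core in any window (x axis, %), by gene list (y axis). The numbers of symbols with a match and with a window stand beside each bar. The described genes (3 of 4) and the other interferon-induced genes (35 of 56) stand far above all symbols (1131 of 27457).

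Of the 9 genes, 8 were higher and 1 was lower at puberty. By any amount, 38.9% of all 22777 genes were higher and 40.4% lower, and 48.9% and 51.1% of the 14029 genes with FPKM of at least 1 in 1 stage. The median log2 ratio of FPKM + 1, pubertal over prepubertal, was 0.92, against -0.01 over these 14029 genes. The IFIT genes Ifit1 and Ifit3 and the transcription factor gene Irf7 were at least 2-fold higher in FPKM + 1, which makes 3 of the 9 genes, where 0.307% of all 22777 genes and 0.499% of the 14029 expressed genes were. At least 1.5-fold higher were 6 of the 9, where 1.43% of all genes were. None of the 9 was at least 2-fold lower, against a share of 0.373% of all genes. When FPKM was compared without adding 1, Usp18 and Isg15 also passed 2-fold, and the number became 5. The counting interval of the FPKM ratio lay above 1 for 7 of the 9 genes, where it did so for 15.5% of the 17024 genes with fragments and transcripts of at least 500 nt, and it lay below 1 for 0 of the 9, where it did so for 19.6%. Among the 13253 genes with an interval and FPKM of at least 1 in 1 stage, which all 9 reached, the shares were 19.4% and 24.3%. Since Ifit1 was picked by this contrast, these counts describe the set and support nothing further.

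**Figure D2:**
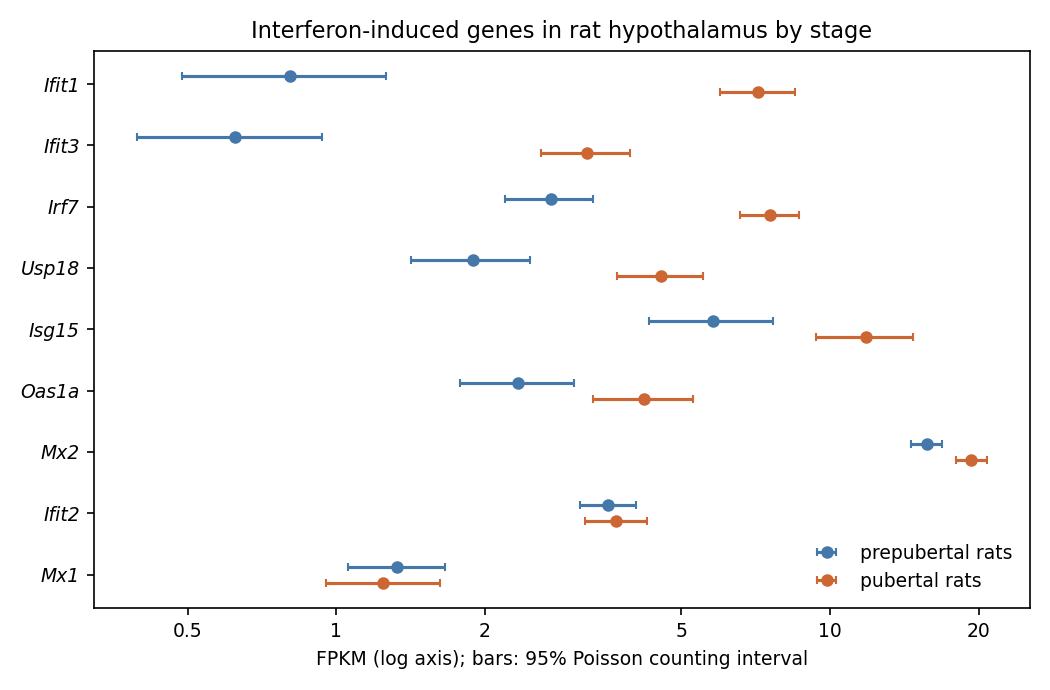
FPKM of each of the 9 genes (x axis, log scale) in prepubertal (blue) and pubertal (orange) rats, 1 library per stage, with 95% Poisson counting intervals as bars. The intervals of the stages lie apart for Ifit1, Ifit3, Irf7, Usp18, Isg15, Oas1a and Mx2, and overlap for Ifit2 and Mx1.

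IFIT proteins carry tetratricopeptide repeats and bind viral or incompletely capped RNA, which keeps it from being translated. Ifit1 (ENSRNOG00000019050, 1 transcript of 1389 nt) was measured at 0.808 FPKM in the prepubertal library, from 19 fragments (interval 0.486 to 1.26 FPKM). In the pubertal library it was at 7.14 FPKM, from about 132 fragments (5.99 to 8.49 FPKM). FPKM was 8.84-fold higher at puberty, with a counting interval of 5.45 to 15.2, and the log2 ratio of FPKM + 1 was 2.17. Among the 13949 genes with at least 10 fragments in each library and transcripts of at least 500 nt, this was the largest FPKM ratio. The derived pubertal number, 131.67, ended in 2 parts of 3 and not in a whole fragment. Ifit1 lies beside the similar gene Ifit1bl in the RefSeq annotation of GRCr8, which was not found by symbol in the mRNA table. Whether the genes shared fragments was not tested, and the value of Ifit1 is uncertain to that extent.

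Ifit3 (ENSRNOG00000022839, 2036 nt) was the lowest of the 9 genes before puberty, at 0.622 FPKM from 23 fragments (0.395 to 0.934 FPKM). It was at 3.21 FPKM from 93 fragments in the pubertal library (2.59 to 3.94 FPKM). The ratio was 5.16 (3.24 to 8.54) and the log2 ratio of FPKM + 1 was 1.38. This was the second largest FPKM ratio among the same 13949 genes. Ifit2 (ENSRNOG00000036604, 3409 nt), of the same family, did not share this difference. It was at 3.56 FPKM before puberty from 233 fragments and at 3.69 FPKM at puberty from 189 fragments. Its ratio of 1.04 had an interval of 0.852 to 1.26, which leaves out a 2-fold difference at this depth. Ifit2, Ifit3, Ifit1bl and Ifit1 follow each other in this order on chromosome 1 of GRCr8, so neighbours in 1 gene cluster differed in their ratios. Before puberty Ifit2 was the highest of the 3 measured IFIT genes and at puberty Ifit1 was.

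Irf7 encodes the transcription factor that drives the amplification phase of the type I interferon response and is itself induced by it. Irf7 (ENSRNOG00000017414, 1958 nt) was at 2.72 FPKM from 96 fragments before puberty (2.20 to 3.32 FPKM). It was at 7.55 FPKM from 209 fragments at puberty (6.56 to 8.65 FPKM). The ratio was 2.78 (2.17 to 3.58), and the log2 ratio of FPKM + 1 was 1.20. By FPKM ratio it stood at position 17 of the 13949 genes, and its promoter is one of those with a match above.

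Isg15 encodes a ubiquitin-like protein that is attached to other proteins during the response, and Usp18 encodes the protease that removes it and also dampens signalling at the type I interferon receptor. Isg15 (ENSRNOG00000021802, 663 nt) went from 5.81 FPKM (49 fragments, 4.29 to 7.67 FPKM) to 11.8 FPKM (79 fragments, 9.37 to 14.7 FPKM). The ratio was 2.04 (1.41 to 2.97) and the log2 ratio of FPKM + 1 was 0.92, just under the 2-fold line. Usp18 (ENSRNOG00000037198, 1606 nt) went from 1.89 FPKM (53 fragments, 1.42 to 2.47 FPKM) to 4.55 FPKM (100 fragments, 3.70 to 5.54 FPKM). The ratio was 2.41 (1.71 to 3.43) and the log2 ratio of FPKM + 1 was 0.94. The gene of the modifier and the gene of its protease were therefore both higher, by ratios whose intervals overlap. Ratios of Isg15, Usp18 and Irf7 were at positions 83, 37 and 17 of the 13949 genes.

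Oas1a encodes a synthetase that makes 2′-5′-linked oligoadenylates on double-stranded RNA, which activate an RNase. It is the only one of the 9 genes with several transcripts in the table. The gene (ENSRNOG00000001369) went from 2.34 FPKM (about 58 fragments, 1.78 to 3.03 FPKM) to 4.21 FPKM (about 75 fragments, 3.32 to 5.29 FPKM), a ratio of 1.80 (1.26 to 2.58) and a log2 ratio of FPKM + 1 of 0.64. Its 4 transcripts did not move together. ENSRNOT00000048450 (1435 nt) held 63.3% of the FPKM of the gene before puberty and 20.8% at puberty, from 1.48 to 0.875 FPKM. ENSRNOT00000038426 (1474 nt) went from 0.858 to 1.40 FPKM, 36.7% and 33.3% of the gene. ENSRNOT00000057279 (1160 nt) was at 6.79e-05 FPKM before puberty and at 1.45 FPKM at puberty, 34.5% of the gene. ENSRNOT00000067176 (1388 nt) was listed at 0 before puberty and at 0.479 FPKM at puberty. The transcripts overlap and their fragments are assigned by the estimation model from few reads, so the split is far less certain than the sum. Taken by the transcript with the highest mean FPKM alone, Oas1a was lower at puberty, with a log2 ratio of -0.40. Oas1a also lies within a cluster of similar Oas1 genes on chromosome 12, and fragments can be shared between them.

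**Figure D3:**
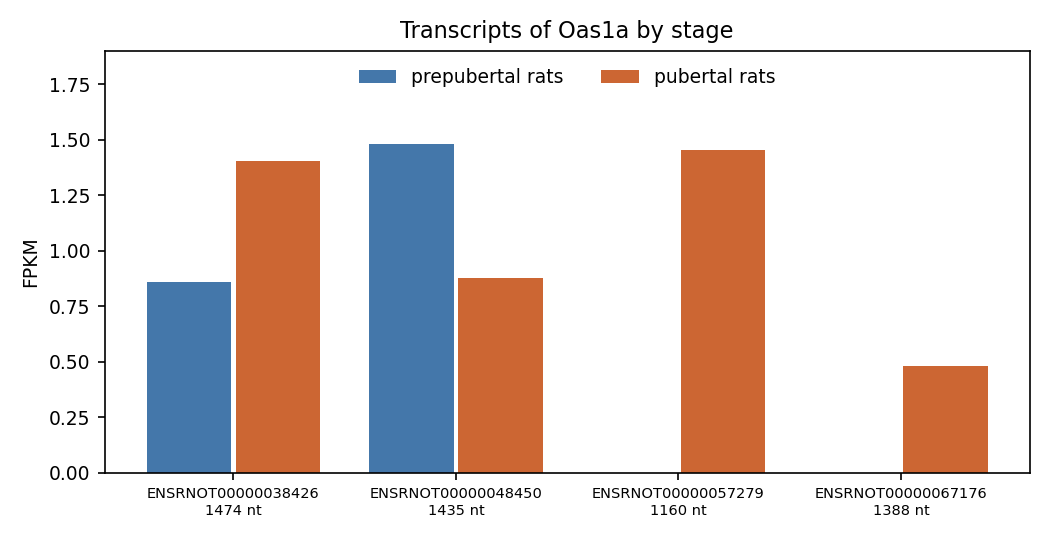
FPKM (y axis) of the 4 transcripts of Oas1a (x axis, with their lengths) in prepubertal (blue) and pubertal (orange) rats, 1 library per stage, with no error bars because fragments were split between transcripts by the authors' estimate. ENSRNOT00000048450 is the highest transcript before puberty and ENSRNOT00000057279 at puberty, where it reaches 1.45 FPKM.

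Mx1 and Mx2 encode dynamin-like GTPases that block the replication of viruses, and they lie near each other on chromosome 11. Mx2 (ENSRNOG00000001963, 2553 nt) was the highest of the 9 genes in each stage. It was at 15.7 FPKM before puberty from 749 fragments (14.6 to 16.9 FPKM) and at 19.3 FPKM at puberty from 722 fragments (18.0 to 20.8 FPKM). The ratio of 1.23 had an interval of 1.11 to 1.37, above 1 and well under 2. Mx1 (ENSRNOG00000001959, 3106 nt) went from 1.33 FPKM (about 79 fragments, 1.06 to 1.66 FPKM) to 1.25 FPKM (about 58 fragments, 0.952 to 1.62 FPKM). Its ratio of 0.937 had an interval of 0.657 to 1.33, and its log2 ratio of FPKM + 1 was -0.05, the 1 value below 0 in the set. The derived numbers of the pair, 78.67 and 57.67 for Mx1 and 749.34 and 721.67 for Mx2, ended in parts of 3. Whether fragments were shared between similar genes was not tested.

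The order of the levels differed between the stages. Before puberty the order from high to low was Mx2, Isg15, Ifit2, Irf7, Oas1a, Usp18, Mx1, Ifit1 and Ifit3. Mx2, Isg15 and Ifit2 were separated by their counting intervals, while each later gene overlapped the gene before it. At puberty the order was Mx2, Isg15, Irf7, Ifit1, Usp18, Oas1a, Ifit2, Ifit3 and Mx1. Here Irf7 and Ifit1 overlapped, as did each neighbouring pair from Usp18 to Ifit3, and the other neighbours were apart. Ifit1 thus moved from position 8 to position 4 of 9 and Ifit2 from position 3 to position 7. The summed FPKM of the 9 genes was 34.8 before puberty and 62.8 at puberty, of which Mx2 gave the largest part in each stage.

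**Figure D4:**
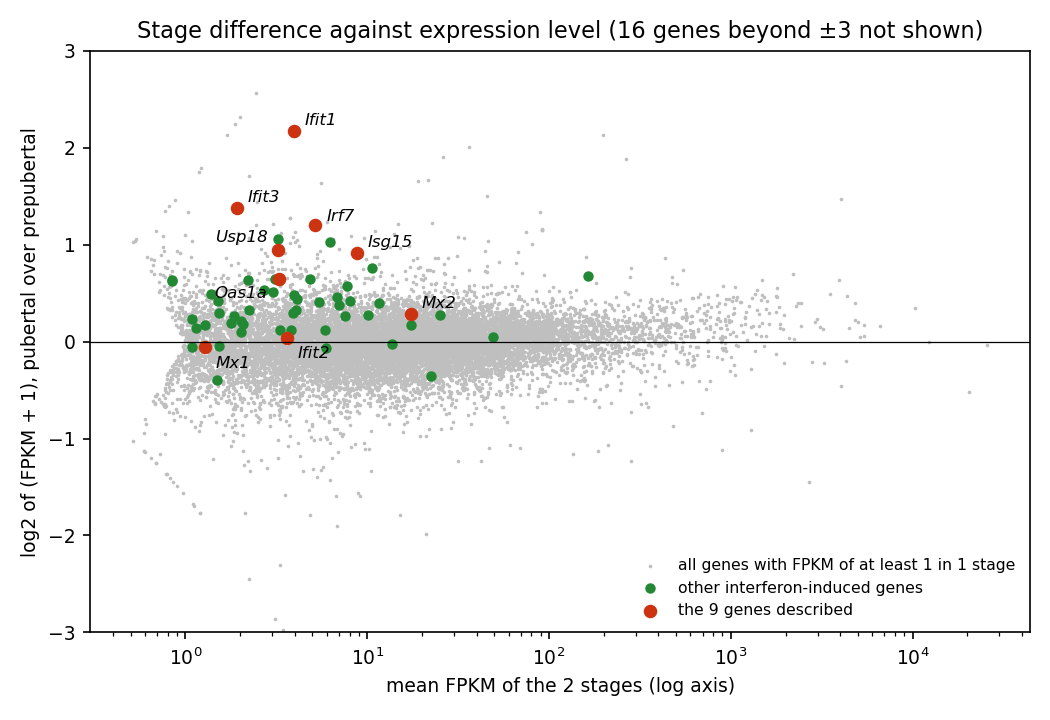
Log2 ratio of FPKM + 1, pubertal over prepubertal (y axis), against mean FPKM (x axis, log scale) for 14013 genes with FPKM of at least 1 in 1 stage (grey), the other interferon-induced genes (green) and the 9 described genes (red), with 16 genes beyond ±3 left out. Ifit1 at 2.17 lies above nearly all genes, while Mx1 at -0.05 and Ifit2 at 0.04 lie in the middle of the cloud.

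The other interferon-induced genes, from a list of 68 symbols of which 62 were found, were set beside the 9 genes. Of the 62, 48 were higher, 13 lower and 1 at 0 in each stage, where 38.9% of all genes were higher and 40.4% lower. The median log2 ratio of FPKM + 1 was 0.25, against 0.00 over all listed genes. A median of this size was not particular to the list. Among the marker lists below it was 0.31 for the hypothalamic genes and 0.62 for red blood cell markers, while other lists had medians below 0. At least 2-fold higher were 2 genes, Rtp4 and Psmb8, where 0.307% of all genes were. None was at least 2-fold lower, where 0.373% of all genes were. The counting interval of the ratio lay above 1 for 20 of 58 genes (34.5%), against 15.5% of all genes, and below 1 for 1 (1.72%), against 19.6%. Rtp4, which encodes a chaperone for membrane receptors, was at 1.76 FPKM before and 4.75 FPKM at puberty, a ratio of 2.70 (1.98 to 3.72). Psmb8, which encodes a subunit of the immunoproteasome, was at 3.77 and 8.72 FPKM, a ratio of 2.31 (1.69 to 3.18). Its partner subunit Psmb9, at 3.59 and 4.01 FPKM, had a ratio of 1.11 (0.723 to 1.71).

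Without adding 1, the FPKM ratios of some low genes of the list were above that of Rtp4. These were Ifi44l with 10 and 22 fragments (2.81, 1.27 to 6.63), Oas1i with 8 and 18 fragments (2.73, 1.19 to 7.62), and Cxcl11, given below. Rsad2, the gene of viperin, was at 3.56 FPKM before and 6.11 FPKM at puberty, a ratio of 1.72 (1.40 to 2.12). Oas1b, of the same family as Oas1a, was at 1.53 and 2.91 FPKM, a ratio of 1.91 (1.39 to 2.64), and Xaf1 was at 2.20 and 4.02 FPKM, a ratio of 1.83 (1.07 to 3.17). Oas2 had only 11 and 4 fragments, and its ratio of 0.465 had an interval of 0.108 to 1.57, which includes 1. The intervals of Oas1k (0.861) and Oas1f (0.855) also included 1. The highest genes of the list by mean FPKM were Ifi27, Adar, Ifi27l2b, Ifitm2 and Cmpk2. Ifi27 was at 126 and 202 FPKM, a ratio of 1.60 whose interval lay above 1. Cmpk2, a mitochondrial nucleotide kinase of the response, was at 16.4 and 18.6 FPKM (1.13, 1.03 to 1.25). Adar, which edits double-stranded RNA, was at 48.6 and 50.4 FPKM, a ratio of 1.04 (0.998 to 1.08), and Ifi27l2b at 22.8 and 27.8 FPKM. Ifitm2, a membrane protein that blocks viral entry, was lower at puberty, at 25.4 and 19.7 FPKM (0.776, 0.613 to 0.977). The chemokine genes Cxcl9, Cxcl10 and Cxcl11, which respond strongly to interferon gamma, had at most 7 fragments in a library, and the intervals of their ratios included 1, with the largest ratio that of Cxcl11, 4.46 (0.848 to 44.0).

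Genes upstream of the response were listed by role. For the counts below, 38.9% of all 22777 genes were higher at puberty by any amount and 40.4% were lower. Of 13 ligand symbols 8 were found and 3 were above 0, Ifna2 and Ifne with 1 fragment in each library and Ifnk with 3 in each, too few to compare the stages. Ifna4, Ifna11, Ifnb1, Ifng and Ifnl3 were listed at 0 in each stage, for which a floor of 3 fragments per library (the one-sided 95% limit of a count of 0) applies. Of 6 receptor genes, Ifnar1, Ifnar2, Ifngr1, Ifngr2, Il10rb and Ifnlr1, 2 were higher and 4 lower, with none at least 2-fold higher or lower. The type I receptor chain Ifnar1 was at 38.1 and 36.0 FPKM, a ratio of 0.945 whose interval included 1. Ifngr1, a chain of the interferon gamma receptor, was at 21.8 and 15.0 FPKM (0.686, 0.605 to 0.777), and its partner Ifngr2 at 21.4 and 21.3 FPKM. The shared chain Il10rb was at 3.05 and 4.25 FPKM (1.39, 1.05 to 1.85).

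Of the 13 signalling genes, among them Jak1, Jak2, Tyk2, Stat2, Irf9, Irf1, Irf3, Irf5, Irf8, Socs1, Socs3 and Pias1, 9 were higher and 4 lower, with a median log2 ratio of 0.16 and none at least 2-fold higher or lower. The interval lay above 1 for Irf9, Irf5 and Jak2, and below 1 for Tyk2 and Jak1. Irf9, the DNA-binding partner of the STAT proteins, was at 9.98 FPKM before and 13.2 FPKM at puberty, a ratio of 1.33 (1.12 to 1.57). Stat2, which binds IRF9, was at 12.1 and 11.7 FPKM, a ratio of 0.973 (0.874 to 1.08). Irf5 was at 1.88 and 3.07 FPKM (1.63, 1.19 to 2.25). Irf3, which acts before interferon is made, was at 26.4 and 24.2 FPKM (0.916, 0.817 to 1.03). The feedback inhibitors Socs1 and Socs3 were above 0 with at most 9 fragments in a library and intervals that included 1.

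Of the 14 sensor and adaptor genes found, Ddx58, Ifih1, Dhx58, Mavs, Tlr3, Tlr7, Tlr8, Tlr9, Tmem173, Mb21d1, Zbp1, Tbk1, Ikbke and Myd88, 9 were higher and 5 lower, with a median log2 ratio of 0.04. Ifih1, a sensor of long double-stranded RNA that is also induced by interferon, was at 1.64 and 2.35 FPKM, a ratio of 1.43 (1.12 to 1.84). The related sensor Ddx58 was at 2.69 and 2.32 FPKM (0.861, 0.606 to 1.22). Tmem173, the STING adaptor of the DNA sensing pathway, was at 1.05 and 0.517 FPKM (0.491, 0.252 to 0.911). The adaptor Mavs, at 5.69 and 5.76 FPKM, had a ratio of 1.01 (0.854 to 1.20). Tlr8, a sensor of single-stranded RNA in endosomes, had 6 fragments before and 15 at puberty, a ratio of 3.20 (1.17 to 10.1).

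**Figure D5:**
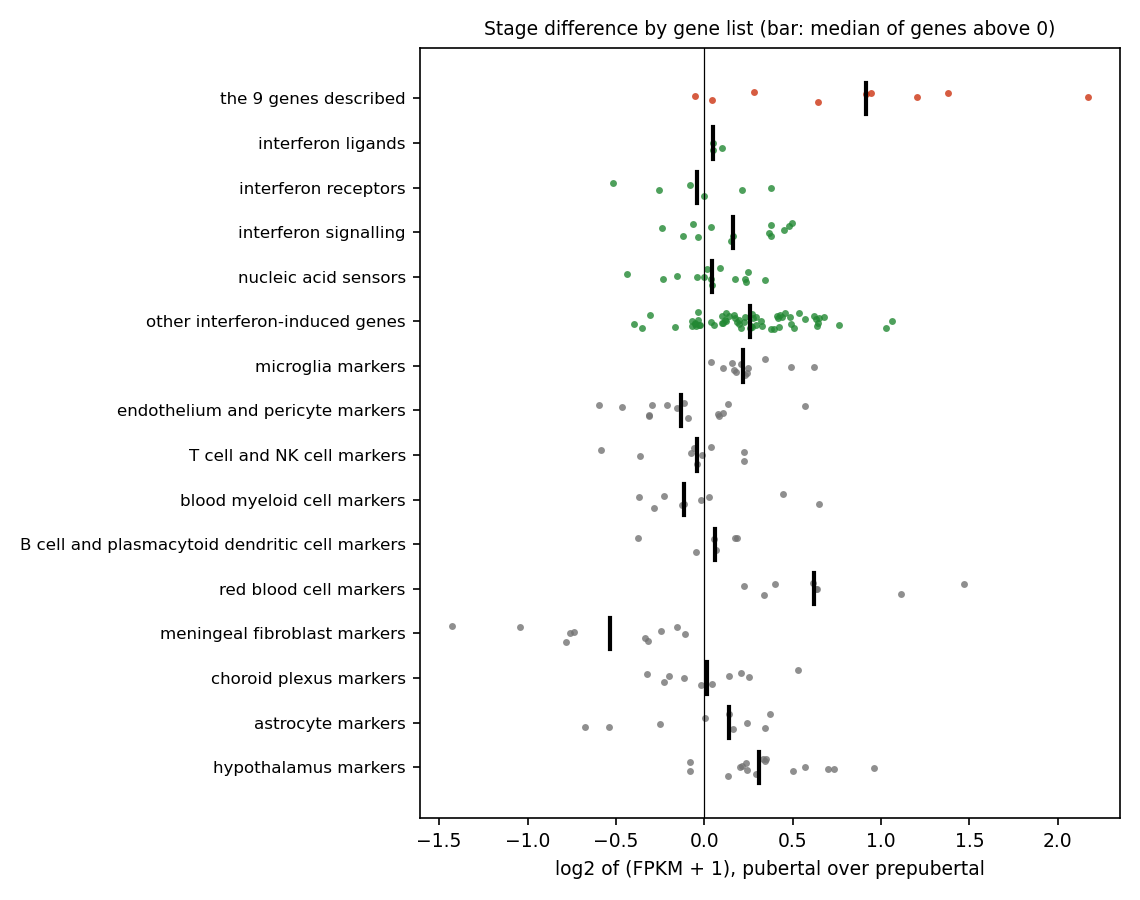
Log2 ratio of FPKM + 1, pubertal over prepubertal (x axis), of each gene above 0 in a stage, by gene list (y axis), with the median of each list as a black bar. The median of the 9 described genes, 0.92, lies farthest to the right, followed by that of the red blood cell markers, and the meningeal fibroblast markers to the left of 0.

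Marker lists of cell types were set beside the 9 genes. In RNA of whole tissue, fewer cells of a type and less RNA per cell cannot be told apart. Microglia markers were higher for 12 of the 13 genes found, with Siglech at 0 in each stage, a median log2 ratio of 0.21 and a highest of 0.62, that of Trem2. Their summed FPKM was 352 before and 418 at puberty, and the interval of the ratio lay above 1 for 6 of 12. Red blood cell markers were higher for 8 of 8, with a median log2 ratio of 0.62 and a summed FPKM of 6848 before and 13107 at puberty, and Hbb and Ahsp were at least 2-fold higher. Meningeal fibroblast markers were lower for 10 of 10, with a median of -0.54 and a summed FPKM of 993 and 607, and Col1a1 and Slc6a13 were at least 2-fold lower. Most of this sum came from 1 gene, Ptgds, at 865 and 518 FPKM. Slc6a13 is also the gene beside Usp18 on chromosome 4. Endothelium and pericyte markers were higher for 5 and lower for 9 of 14, with a median of -0.13, intervals above 1 for 2 and below 1 for 6, and a summed FPKM of 290 and 299, in which Slco1a4 went from 29.0 to 43.5 FPKM. The hypothalamic genes listed as a check of the tissue were higher for 14 of 16, with a median of 0.31 and a summed FPKM of 2964 and 4438. The part of these cells in the difference was not tested.

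T cell and NK cell markers summed to 6.52 FPKM before and 5.11 FPKM at puberty over 12 genes, most of it from Cd4 and Lck, and Nkg7, Gzmb and Ncr1 were at 0 in each stage. Cd3e had 8 fragments before puberty and 0 at puberty. Blood myeloid markers summed to 31.5 and 33.3 FPKM over 11 genes, with Elane and Ly6c at 0 in each stage. Of these, S100a8 was at 12.3 and 12.1 FPKM, S100a9 at 5.98 and 9.96 FPKM, and Cd14 at 0.966 and 1.68 FPKM, a ratio of 1.73 whose interval lay above 1. Vcan was at 7.29 and 5.43 FPKM, with an interval below 1. B cell and plasmacytoid dendritic cell markers summed to 15.8 and 13.1 FPKM over 8 genes, most of it from Tcf4, which brain cells also express, with Cd79a and Siglech at 0 in each stage. Bst2 stands both in this list and among the other interferon-induced genes. Astrocyte markers were higher for 6 and lower for 3 of 9, and choroid plexus markers were higher for 5 and lower for 5 of 10 entries.

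The response element was also set beside the stage ratio over all expressed genes with a promoter window. The 298 genes with a match had a median log2 ratio of 0.06 and 5.37% of them were at least 1.5-fold higher in FPKM + 1, against -0.01 and 1.27% for the 9539 genes without one. Without the 9 genes and the other interferon-induced genes, 268 genes with a match remained, with a median of 0.03 and 1.87% at least 1.5-fold higher. Within the list of other interferon-induced genes, 23 of 27 with a match and 12 of 13 without one were higher at puberty. Their median log2 ratios were 0.38 and 0.29. At least 1.5-fold higher were 8 of 27 and 0 of 13. The latter count depends on the line, as Tor3a and Herc6, without a match, lay a little under it at log2 ratios of 0.57 and 0.53. Genes of a library are not replicates, so no test was made.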

How the data were processed

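Hypothalamic RNA of prepubertal and pubertal rats was depleted of ribosomal RNA, made into strand-specific libraries and sequenced in paired ends by the authors. They used TopHat for alignment, Cufflinks and Scripture for assembly, and Cuffdiff for FPKM (version 2.1.1 of Cufflinks and Cuffdiff by the submitters' processing notes). The deposited FPKM are scaled for library size and transcript length, with 1 column per stage. How the 3 rats per stage were combined is not given in the sources used here. The notes name the build Rnor 5.0, while the methods cite a later annotation, so no coordinates were taken from the files. The comparison table served for gene symbols, lengths and a second copy of the FPKM, which was equal for all transcripts of the 9 genes and differed for 13 of 26324 mRNA transcripts. Its log2 ratios, p-values and q-values were not used, and the lncRNA tables were not used here. The values of 1 signalling gene are not reported here.

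Stage differences are log2 ratios of FPKM + 1 per gene. Depth and mean fragment length (257 and 251 nt) were fitted per stage to single-transcript genes of 800 to 5000 nt that held 1 fragment, and wholeness was counted up to 100 fragments. Fragments, rounded to whole numbers, gave the intervals. The procedure was tested on simulated data. No gene was tested, as each stage has 1 value.

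The members and lists were chosen with earlier results of these data known. Named were the 9 genes, the genes above 0 among ligands, receptors, signalling and sensors, list genes at least 2-fold changed, the 5 highest of the other interferon-induced genes, and the 5 genes nearest to Ifit1 in log2 ratio. All other genes given with values, among them Rsad2, Ifi44l, further Oas genes, Xaf1, Psmb9, the chemokine genes, single cell type markers and the genes of the largest FPKM ratios, were named after their values were seen. Promoters came from RefSeq (GRCr8). Values were computed in Python 3.11.15 (scipy 1.17.1, pandas 2.3.3, numpy 2.4.6) and plotted with matplotlib 3.10.9.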

Additional observations from a re-analysis of the deposited data

How the results depend on the processing

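The number of the 9 genes at least 2-fold higher at puberty was 3 with FPKM + 1 and became 5 with a pseudocount of 0.1 and 5 with none, the latter an alternative chosen after seeing the data. For the other interferon-induced genes the corresponding number was 2, and it became 5 with a pseudocount of 0.1 and 5 with none. Without a pseudocount the median log2 ratio was 1.03 for the 9 genes and 0.37 for the other interferon-induced genes. Adding 1 to FPKM draws low genes towards 0 by construction, and Ifit1 went from 2.17 to 3.14 without a pseudocount. Scaling the pubertal library to equal medians (a factor of 1.04) or upper quartiles, the comparison table and filters at FPKM of 0.1 and 1 moved these 4 results by at most 1.5 times or under 0.1 in log2, and so did taking 1 transcript per gene. Of 72 log2 ratios of the 9 genes under 8 alternatives, 67 stayed within the counting interval of the ratio carried over to the scale of FPKM + 1. The other 5 were Ifit1 and Ifit3 with a pseudocount of 0.1 and with none, and Oas1a by its highest transcript (-0.40), which turned below 0. No paired analysis was possible because each stage has 1 column. The depth limits genes under about 10 fragments.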

Other observations

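The 5 genes outside the set whose log2 ratio of FPKM + 1 lay nearest to that of Ifit1, over 2 libraries, were Prl, LOC100360056, LOC100363436, Rpl37-ps1 and AABR06056907.1. Prl, the gene of the pituitary hormone prolactin, was listed at 0 before puberty and at 3.4 FPKM from 41 fragments at puberty, a log2 ratio of 2.14. The other 4 have transcripts of at most 309 nt, for which fragments were not derived. Of the 5, LOC100360056 and LOC100363436 were above 0 in each library, the first at 72.7 FPKM before and 322 FPKM at puberty. Of the 8 genes that stood above Ifit1 by log2 ratio of FPKM + 1, all were listed at 0 before puberty.

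Besides Ifit1 and Ifit3, the genes with the largest FPKM ratios among the 13949 with at least 10 fragments in each library were RGD1560925 at 3.95 and the heat shock genes Hspa1a and Hspa1b at 3.21 each, which are near copies of each other and can have shared fragments.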
